A study of Arabidopsis thaliana with 4 samples.

Results

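UDP-glycosyltransferases (UGTs) and glutathione transferases (GSTs), the enzymes that attach a sugar or glutathione to small molecules, were followed in whole seedlings of the Atdi19-3 mutant and of the wild type. The members were the probe sets that the array's annotation assigns to exactly 1 gene and whose RefSeq symbol or synonym has the form of a UGT name or begins with GSTU, GSTF, GSTZ, GSTT or GSTL and a digit, leaving out UGT74B1. This gave 63 probe sets for 63 genes, 50 of them UGTs and 13 GSTs, out of 22746 probe sets tested. They cover 50 of the 63 UGT genes and 13 of the 48 GST genes that RefSeq names in this way, and the others were not analysed here. Of the GST classes, tau had 11 members, and phi and lambda had 1 each. No probe set of the theta or zeta class met the rule.

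The Atdi19-3 seedlings carry a T-DNA insertion near the end of the fifth exon of AtDi19-3, a zinc finger gene of the drought-induced Di19 family, and come from a single insertion line in which the transcript is reduced. Both the Atdi19-3 and the wild-type seedlings were of the Col-0 ecotype, 10 days old, raised on 1/2 MS medium in white light, and harvested with no treatment as whole seedlings, so organs were not separated. RNA of each genotype was hybridized to 2 Affymetrix ATH1 arrays, which the labels call biological replicates. The measurement is 1 log2 value per probe set and array, after background correction and normalization. No probe set was assigned to AtDi19-3 alone, so the genotype labels were not checked by its transcript.

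Both families belong to the conjugation step of detoxification. UGTs transfer a sugar from a UDP-sugar to hormones, flavonoids, phenylpropanoids and xenobiotics, which usually lowers their activity and readies them for the vacuole. GSTs add the tripeptide glutathione to electrophilic compounds, and some classes act as carriers or as thiol transferases. In Arabidopsis many members of both families are known to be induced by herbicides, pathogens or oxidative stress, and the tau and phi classes are specific to plants.

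The arrays of the 2 genotypes differed as a whole, which bears on every value below. The lowest value, 2.49, acts as a floor. The share of tested probe sets above 4 was 14.1% and 13.5% on the Atdi19-3 arrays, against 7.10% and 8.34% on the wild-type arrays. The 18 hybridization spike-in probe sets, for transcripts added to every array in a fixed mixture, had array medians of 5.92 and 6.20 on the Atdi19-3 arrays and of 9.69 and 9.41 on the wild-type arrays. In 5 of 6 control pairs the 3' probe set exceeded the 5' probe set by less on the Atdi19-3 arrays than on the wild-type arrays, for instance by 0.58 and 0.78 against 2.76 and 2.89 for the newer GAPDH pair. These measures split the arrays as the genotype does, so an array effect and an effect of the mutation cannot be told apart. Of 17 organ markers, 3 had a probe set of their own. The leaf antenna gene LHCB4.1 read 9.56 and 9.78 on the Atdi19-3 arrays and 6.08 and 6.09 on the wild-type arrays, whereas the root hair expansin gene EXPA7 and the seed storage gene PAP85 lay under 3 on all 4 arrays.

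Most UGT and GST members gave no reading clear of the floor in seedlings of either genotype. Of the 63 members, 47 (74.6%) lay under 3 on all 4 arrays, compared with 56.0% of all tested probe sets. These were 38 of the 50 UGTs, with values between 2.49 and 2.95, and 9 of the 13 GSTs, with values between 2.49 and 2.97. A further view of the floor is that 14 members (22.2%) held the same value on all 4 arrays, as did 12.1% of all tested probe sets. By family these were 9 UGTs and 5 GSTs, all of the tau class. For these members the arrays could not show a genotype difference.

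The share of members above 3 was higher in the GST family than in the UGT family on each of the 4 arrays. Among the UGTs 8 and 6 of 50 read above 3 on the Atdi19-3 arrays, against 5 and 2 on the wild-type arrays. Among the GSTs the counts were 4 and 4 of 13 on the Atdi19-3 arrays and 3 and 3 on the wild-type arrays. All tested probe sets had 33.1% and 31.8% above 3 in Atdi19-3 and 27.0% and 27.5% in the wild type. Above 4 on both arrays of a genotype there were 2 GSTs in Atdi19-3, GSTU20 and GSTL3, and 1 in the wild type, GSTU20, but no UGT in either genotype. Members are not replicates, and the 2 families were not tested against each other.

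**Figure D1:**
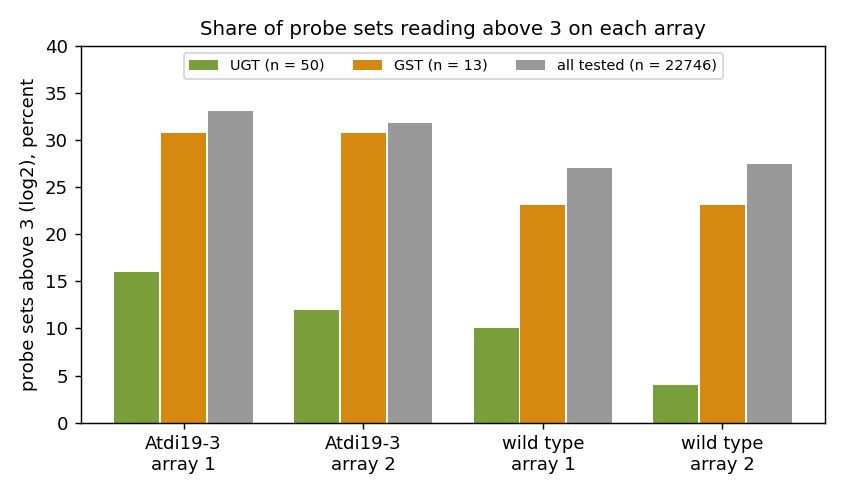
Percentage of probe sets with a log2 value above 3 on each of the 4 arrays, for the 50 UGTs, the 13 GSTs and all 22746 tested probe sets. The UGT bars are the lowest on every array, between 4% and 16%, and the GST bars lie between 23.1% and 30.8%.

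With limma, 2 of the 63 members (1 UGT and 1 GST) passed a Benjamini-Hochberg adjusted p under 0.05, both higher in Atdi19-3. That is 3.17% of the members. Over all tested probe sets 3.76% passed, 3.16% as higher and 0.602% as lower, so the members' share was close to that background. A log2 fold change over 1 in size with an unadjusted p of 0.05 or less was seen for 1 member, GSTU20, and for 6.7% of all tested probe sets. Without the adjustment, 4 of 63 members had a p under 0.05 as higher and 2 as lower, compared with 14.6% and 3.85% of all tested probe sets. In bulk seedlings a higher value can come from more RNA per cell or from more cells of a type, and these cannot be told apart.

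GSTU20 (AT1G78370), a tau-class enzyme that binds the jasmonate-conjugating protein JAR1 (FIN219) in far-red light signaling, read 6.35 and 6.12 on the Atdi19-3 arrays and 4.30 and 4.27 on the wild-type arrays. The groups did not overlap, and the replicates of each genotype were close. The means were 6.24 ± 0.16 in Atdi19-3 and 4.29 ± 0.02 in the wild type (SD, n = 2 each). This is a log2 fold change of 1.95 (standard error 0.10, limma adjusted p = 0.039), or 3.86-fold. With the arrays centred on their brighter probe sets the log2 fold change was 1.49 and still called (limma adjusted p = 0.00051). That setting called 17923 of the 22746 probe sets. GSTU20 was also called among probe sets above 4 on both arrays of a genotype (limma adjusted p = 0.0015), where 1955 of 2943 were called. Quantile normalization of the deposited values reduced the change to 1.06 and ended the call (limma adjusted p = 0.13). The call was also lost without any 1 of the 4 arrays, with changes of 1.83 to 2.06 (limma adjusted p from 0.063 to 0.12).

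UGT88A1 (AT3G16520), a glucosyltransferase known to act on flavonols in vitro, read 3.91 and 3.79 on the Atdi19-3 arrays, while both wild-type arrays held the same value of 2.97. On the deposited scaling it rose at least 1.84-fold (log2 fold change 0.88, standard error 0.06, limma adjusted p = 0.046), a lower bound because a pair of identical low values may mark the limit of what this probe set can read. After quantile normalization it was still called, with 0.55 (limma adjusted p = 0.049), and it was 0.42 with the arrays centred on their brighter probe sets (limma adjusted p = 0.014). Centring also called members that held the same value on all 4 arrays, such as UGT74F1, so passing there says little about UGT88A1. Leaving out any 1 of the 4 arrays ended the call, with changes of 0.82 to 0.94 (limma adjusted p from 0.057 to 0.14).

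A further 3 members had larger differences without passing the test. GSTU18 (AT1G10360), of the tau class, read 3.53 and 3.41 on the Atdi19-3 arrays and 2.73 and 2.75 on the wild-type arrays, which did not overlap. Its log2 fold change was 0.73 on the deposited scaling (95% confidence interval of the fit 0.53 to 0.92, limma adjusted p = 0.053), though the floor may hide part of the difference. After quantile normalization GSTU18 passed, with 0.58 (limma adjusted p = 0.043). It did not pass with the arrays centred on their brighter probe sets (0.27, limma adjusted p = 0.067) or with any 1 array left out (limma adjusted p from 0.073 to 0.16). UGT72B1 (AT4G01070), which conjugates chlorinated anilines and phenols as well as monolignols, read 3.15 and 3.29 on the Atdi19-3 arrays and 2.62 on both wild-type arrays. Its log2 fold change on the deposited scaling was 0.60 (95% confidence interval 0.37 to 0.83, limma adjusted p = 0.082), and here too the floor may hide part of the difference. With the arrays centred on their brighter probe sets the log2 fold change was 0.15 (limma adjusted p = 0.33).

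GSTL3 (AT5G02790), a lambda-class enzyme that works as a glutathione-dependent thiol transferase, read 5.27 and 5.63 on the Atdi19-3 arrays and 3.71 and 4.76 on the wild-type arrays. The groups did not overlap, but the wild-type arrays stood 1.05 apart. The log2 fold change was 1.21 with a 95% confidence interval of -0.57 to 3.0 (limma adjusted p = 0.44), an interval that covers no change as well as a large increase. It was 0.69 without the first wild-type array and 1.74 without the second, after quantile normalization it was 0.35 (limma adjusted p = 0.67), and with centring on the brighter probe sets 0.76 (limma adjusted p = 0.0502).

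**Figure D2:**
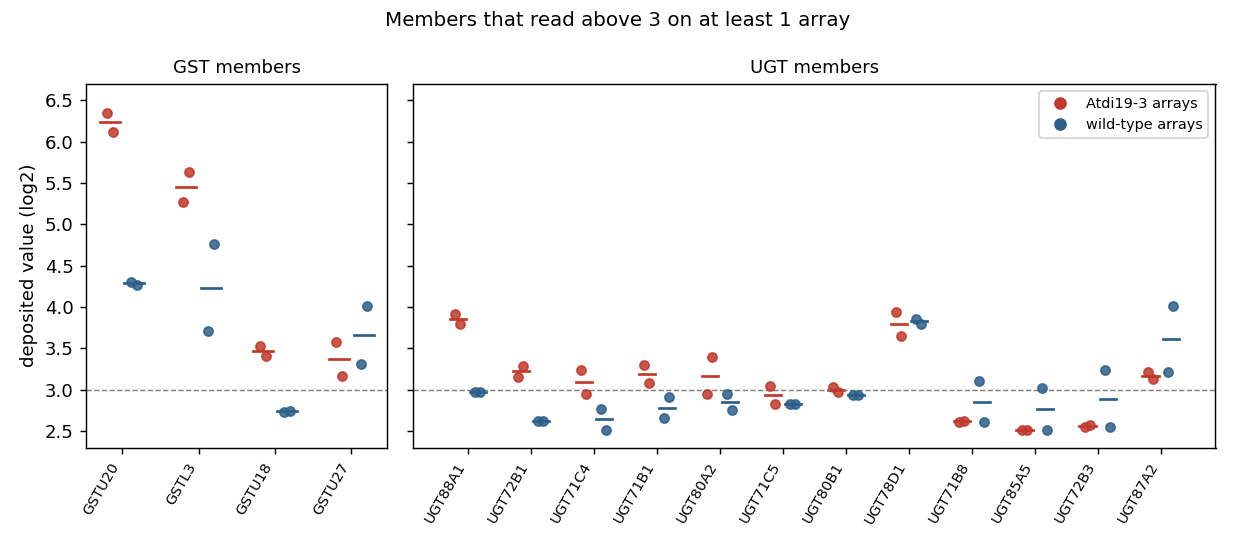
Deposited log2 values of the 4 GSTs and 12 UGTs that read above 3 on at least 1 array. Each point is 1 array, the short lines are genotype means, and the dashed line marks 3. GSTU20 and GSTL3 reach above 5 on the Atdi19-3 arrays, and no UGT does on any array.

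No member passed the test as lower in Atdi19-3, compared with 0.602% of all tested probe sets. With a background share so low, nothing is read from the absence of such a member. UGT87A2 (AT2G30140), which is known to influence flowering time, had the most negative log2 fold change, -0.44 (limma adjusted p = 0.58). Its values were 3.22 and 3.13 on the Atdi19-3 arrays and 3.22 and 4.01 on the wild-type arrays, so that 1 wild-type array alone stood apart. UGT85A3 (AT1G22380) read 2.50 and 2.60 in Atdi19-3 against 2.95 and 2.86 in the wild type and had a log2 fold change of -0.36 (limma adjusted p = 0.13) within the range of the floor. GSTU27 (AT3G43800), of the tau class, read 3.57 and 3.17 on the Atdi19-3 arrays and 3.32 and 4.01 on the wild-type arrays, and its log2 fold change of -0.30 (limma adjusted p = 0.67) was smaller than the gap between the wild-type arrays.

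Single wild-type arrays accounted for many of the small negative values. A lone array was counted where it stood more than 0.1 above the other 3 while these lay within 0.1 of each other. This held for 19 members (30.2%) on a wild-type array, 12 on the first and 7 on the second, and for 3 members (4.76%) on an Atdi19-3 array. Over all tested probe sets a lone array was also more often a wild-type array, with 20.4% on a wild-type array and 4.80% on an Atdi19-3 array, and the members were not tested against these shares. UGT72B3 (AT1G01420) is an example, with 2.54 and 2.57 in Atdi19-3 and 3.23 and 2.54 in the wild type. UGT85A5 (AT1G22370) read 2.51 on both Atdi19-3 arrays and 3.02 and 2.51 on the wild-type arrays.

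Across the families the log2 fold changes centred on 0. Since 38 of 50 UGTs and 9 of 13 GSTs lay under 3 on all arrays, values near 0 do not show that expression was unchanged. The median was 0 for the UGTs and 0 for the GSTs, as it was over all tested probe sets, and 40 of 50 UGTs (80%) and 9 of 13 GSTs (69.2%) lay within 0.2 of 0, against 63.2% of all tested probe sets. The UGTs ranged from -0.44 to 0.88 and the GSTs from -0.30 to 1.95. The 2 values in Atdi19-3 exceeded the 2 in the wild type for 8 UGTs and 4 GSTs, compared with 28.5% of all tested probe sets. Both were lower for 3 UGTs, UGT76B1, UGT84B1 and UGT85A3, and for 0 GSTs, compared with 10.4% overall. Centring the arrays on their brighter probe sets shifted all probe sets alike by -0.46 and with them both medians.

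**Figure D3:**
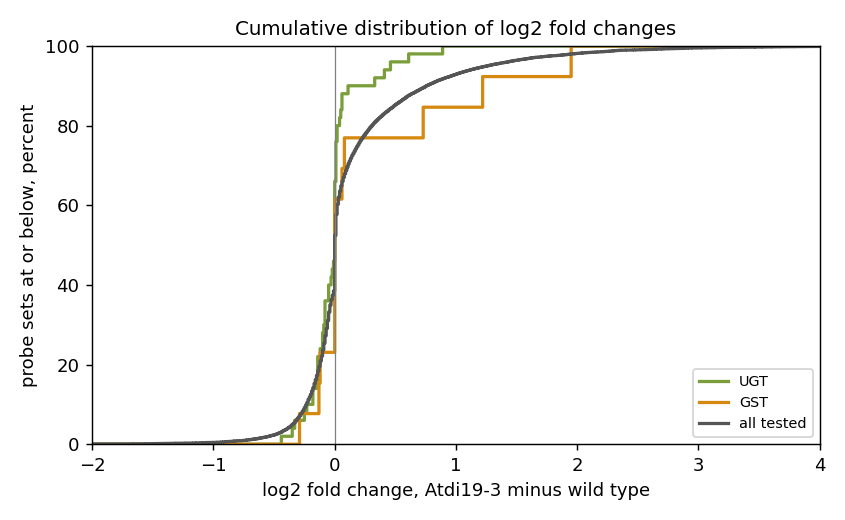
Cumulative percentage of probe sets by log2 fold change (Atdi19-3 minus wild type) for the UGTs, the GSTs and all tested probe sets, shown from -2 to 4. All 3 curves climb steeply at 0, the UGT curve ends at 0.88, and the GST curve has steps at 0.73, 1.21 and 1.95.

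The UGTs of hormone conjugation were near the floor. Of the 3 members that conjugate auxin, 0 were called, against 3.76% of all tested probe sets, and nothing is read from counts in such small groups. UGT84B1 (AT2G23260), which makes the glucose ester of IAA, read 2.52 and 2.51 in Atdi19-3 and 2.52 and 2.68 in the wild type. UGT74D1 (AT2G31750), which acts on IAA and its oxidation product, read 2.52 on both Atdi19-3 arrays and 2.72 and 2.52 on the wild-type arrays. The 3 members of abscisic acid conjugation were not called either, with log2 fold changes of -0.24 for UGT71B8 (AT3G21800) and 0.11 for UGT71C5 (AT1G07240). UGT71C5, whose product is the glucose ester of abscisic acid, read 3.04 and 2.83 in Atdi19-3 and 2.83 on both wild-type arrays, so 1 Atdi19-3 array alone exceeded the others. The cytokinin N-glucosyltransferases UGT76C1 (AT5G05870) and UGT76C2 (AT5G05860) lay between 2.52 and 2.70 on all 4 arrays.

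The members listed for defence and for secondary metabolism gave no call, and 3.76% of all tested probe sets were called. The called UGT88A1, which acts on flavonols in vitro, is in none of these role groups, so the absence of a call depends on how the groups were listed. UGT76B1 (AT3G11340), which glucosylates isoleucic acid and salicylate, read 2.49 and 2.53 in Atdi19-3 and 2.73 and 2.66 in the wild type (log2 fold change -0.18, limma adjusted p = 0.15). UGT74F1 (AT2G43840), of salicylate glucoside formation, held 2.49 on all 4 arrays. Among the 5 members of flavonoid and anthocyanin glycosylation, the flavonol rhamnosyltransferase UGT78D1 (AT1G30530, chosen after its values were seen) was the only one above 3. It read 3.94 and 3.65 on the Atdi19-3 arrays and 3.86 and 3.79 on the wild-type arrays, with a log2 fold change of -0.03 and a 95% confidence interval of -0.52 to 0.46. This value depended on the scaling, with -0.68 after quantile normalization (limma adjusted p = 0.17) and -0.49 with the arrays centred on their brighter probe sets (limma adjusted p = 0.014). The anthocyanin xylosyltransferase UGT79B1 (AT5G54060) and the flavonol glycosyltransferase UGT79B6 (AT5G54010) lay under 3 on all arrays, with log2 fold changes of 0.02 and -0.16.

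Of the 7 members that act on monolignols and phenylpropanoid acids only UGT72B1 exceeded 3, and UGT72E1 (AT3G50740), a glucosyltransferase of lignin precursors, lay between 2.65 and 2.68. Of the 7 members grouped as responsive to stress and xenobiotics 0 were called, against 3.76% of all tested probe sets, and nothing is read from so few members. UGT73B5 (AT2G15480), known from defence against bacteria, read 2.55 and 2.60 in Atdi19-3 and 2.53 on both wild-type arrays. The sterol glucosyltransferases UGT80A2 (AT3G07020) and UGT80B1 (AT1G43620) had log2 fold changes of 0.32 (limma adjusted p = 0.58) and 0.06 (limma adjusted p = 0.55). UGT80A2 read 2.94 and 3.4 on the Atdi19-3 arrays and 2.94 and 2.75 on the wild-type arrays, which overlap. UGT71B1 (AT3G21750) and UGT71C4 (AT1G07250), both chosen after their values were seen, did not overlap between genotypes, with 3.30 and 3.09 against 2.65 and 2.92 for UGT71B1 and 3.24 and 2.95 against 2.77 and 2.51 for UGT71C4. Neither passed the test (limma adjusted p = 0.39 and 0.42), and 28.5% of all tested probe sets were separated in this direction. After quantile normalization the log2 fold changes were 0.31 for UGT71B1 and 0.39 for UGT71C4. With centring on the brighter probe sets they were -0.051 for UGT71B1 and -0.0068 for UGT71C4.

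Of the GST classes, the tau class held the 1 called member, GSTU20, and 8 of its 11 members lay under 3 on all arrays. The phi-class member GSTF4 (AT1G02950) read 2.65 and 2.68 in Atdi19-3 and 2.65 and 2.57 in the wild type. In the order of RefSeq genes, 40 of the 63 members stand within 5 genes of another member, in 16 groups. The members next to GSTU20 on chromosome 1 lay under 3 on all arrays. GSTU21 (AT1G78360), its direct neighbour, read 2.50 and 2.54 in Atdi19-3 and 2.50 and 2.78 in the wild type, and GSTU22 (AT1G78340) and GSTU23 (AT1G78320) held 2.53 and 2.51 on all 4 arrays. The adjacent UGT71C5, UGT71C4 and UGT71C3 (AT1G07260) had log2 fold changes of 0.11, 0.45 and -0.15.

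**Figure D4:**
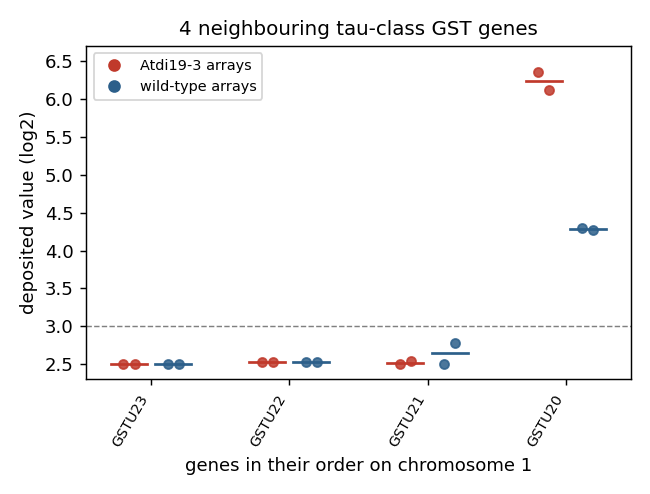
Deposited log2 values of GSTU23, GSTU22, GSTU21 and GSTU20 in their order on chromosome 1. Points are arrays, short lines are genotype means, and the dashed line marks 3. Only GSTU20 reads above 3, at 6.35 and 6.12 in Atdi19-3 and 4.30 and 4.27 in the wild type.

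Of 42 genes listed for the supply and use of the conjugating groups (glutathione synthesis and recycling, UDP-sugar supply, vacuolar transport of conjugates, and the xenobiotic response), 3 had a probe set of their own and 0 of them were called. All 3 had an unadjusted limma p under 0.05 as higher, as did 14.6% of all tested probe sets, and nothing is read from so few genes. GR2 (AT3G54660), the plastid glutathione reductase, read 4.16 and 4.14 in Atdi19-3 and 2.58 and 3.05 in the wild type. Its log2 fold change was at least 1.34 on the deposited scaling (limma adjusted p = 0.13). It was 0.98 after quantile normalization (limma adjusted p = 0.21) and 0.88 with centring (limma adjusted p = 0.0092). GR1 (AT3G24170), the cytosolic form, read 3.32 and 3.31 against 3.22 and 3.21 in the wild type (0.10, limma adjusted p = 0.089), a difference that turned to -0.23 after quantile normalization and to -0.36 with centring. USP (AT5G52560), which makes UDP-sugars, read 3.69 and 3.41 in Atdi19-3 and 2.60 and 2.93 in the wild type. Its log2 fold change was at least 0.79 on the deposited scaling (limma adjusted p = 0.24), 0.59 after quantile normalization and 0.33 with centring.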

How the data were processed

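The authors labelled total RNA with biotin from the 3' end, hybridized it to Affymetrix ATH1 arrays and summarized them by GCRMA under R 3.4.0 (submitters' processing notes). The deposited values are on the log2 scale, 1 per probe set and array. Background correction and normalization were kept as deposited, and their settings are not given in the sources used here. The 22746 probe sets other than the 64 controls were fitted in R 4.3.3 with limma 3.58.1 (lmFit and eBayes, Atdi19-3 minus wild type, no covariate, no filter), with Benjamini-Hochberg adjustment over all of them. The fit was tested on simulated data. The prior was worth 0.48 degrees of freedom. The smallest p of an exact two-sided permutation test is 0.33 in this design, and none was run. The number of arrays limits the precision.

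The platform annotation gives 1 gene for 13513 probe sets, several for 503 and lists none for 8730, and 13436 of the 13513 matched a RefSeq TAIR10.1 gene, from which symbols, locus tags and gene order were taken. In some comparisons an array of the genotype with the lower mean read under 3, or its arrays held identical values. There the floor may hide part of the difference on the deposited scaling, even where the text does not repeat it. The size given may then be too small, and it also carries the error of the fit. Named are called members, the 5 largest increases and decreases, and per role group or class up to 4 called members or the 2 with the smallest p. Other members are said to have been chosen later, apart from those used as examples of neighbouring genes. For pathway genes the rule gave counts only where none was called, so GR2, GR1 and USP are named outside it. Members and lists were chosen with earlier results of these data known. No sequence table was used. The alternatives were quantile normalization, centring on probe sets above 5 on all arrays, a filter, a trended prior, a fold threshold, a replicate block and leaving out each array.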

Additional observations from a re-analysis of the deposited data

Results flagged for a closer look

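Outside the members, 3 probe sets match several genes of which at least 1 is a UGT, and no gene is named from them. In 1 of these, matched to 2 genes with 1 UGT among them, both Atdi19-3 arrays (4.1 and 3.64) lay above both wild-type arrays (3.58 and 3.27). Its log2 fold change was 0.45 (standard error 0.25, limma adjusted p = 0.58), and 28.5% of all tested probe sets were separated in this direction.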

How the results depend on the processing

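The counts of calls moved with most settings. Over all probe sets 855 were called as reported, 662 with the trended prior, 428 after quantile normalization, 17923 after centring on the brighter probe sets (which moved every probe set by -0.46), 1955 among probe sets above 4 on both arrays of a genotype, 1524 at a log2 fold change over 1 with an unadjusted p of 0.05 or less, and 0 to 3654 with 1 array left out. For the UGTs the count of 1 became 46 with centring, 0 with the filter, the trended prior and the fold threshold, and 0 to 12 with 1 array left out, and stayed at 1 after quantile normalization. For the GSTs the count of 1 became 11 with centring, 2 with the filter, and 0 to 1 with 1 array left out. It stayed at 1 with the trended prior, the fold threshold and quantile normalization, where the gene called was GSTU18 and not GSTU20. Dropping either Atdi19-3 array left 0 calls over all probe sets, with 3768 or 3933 at an unadjusted p under 0.05. Both genotypes have arrays numbered 1 and 2. The same-numbered arrays did not deviate together (correlation 0.02 across probe sets), and with a replicate block limma called 0 probe sets, so 0 UGTs and 0 GSTs (3638 probe sets, 3 UGTs and 2 GSTs at an unadjusted p under 0.05). The UGT median of 0 became -0.46 with centring, and the filter left no UGT. The GST median of 0 became 0.019 after quantile normalization, -0.46 with centring and 1.58 for the 2 GSTs that passed the filter. GSTL3 passed it only through its Atdi19-3 arrays, so the filter's selection raises that median and that count, and neither supports a difference. Above 3 instead of 4, 5 UGTs and 4 GSTs were detected, in place of 0 and 2, and quantile normalization gave 1 UGT. Centring turned the log2 fold change below 0 for GSTF4 (-0.40), UGT71C5 (-0.35), UGT72E1 (-0.44), UGT73B5 (-0.42), UGT76C1 (-0.46), UGT76C2 (-0.42), UGT79B1 (-0.44), UGT80A2 (-0.14) and UGT80B1 (-0.40), and quantile normalization gave -0.044 for UGT80B1. With 1 array left out, GSTU27 ranged from -0.64 to 0.054, UGT71B8 from -0.49 to 0.0080 and UGT72B3 from -0.68 to 0.013. A shift of all values alike by centring also moves members at the floor. The cause of the other changes was not tested.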
